A study of Homo sapiens with 8 samples.

Results

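CXCL8, CXCL1, CXCL2, CXCL3, CXCL5, CXCL6, CCL2, CCL20, NFKBIA and TNFAIP3 are 8 chemokine genes and 2 feedback genes of the NF-κB pathway. They were taken by gene name and make up 10 of the 62703 genes in the count table of HepaRG cells, a human hepatic cell line used as terminally differentiated cultures in which hepatocyte-like cells grow beside biliary-like cells. The cultures were exposed for 24 h to a chemical in DMSO vehicle, dissociated into single cells in the presence of actinomycin D and anisomycin, which block transcription and translation, and read by split-pool barcoding (Parse Evercode), which counts unique molecular identifiers (UMIs) per gene and cell.

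The chemicals were rotenone at 0.2 and 0.4 µM, which blocks complex I of the mitochondrial respiratory chain; cycloheximide at 0.2, 2 and 20 µM, which blocks translation; etoposide at 0.25, 2.5 and 25 µM, a topoisomerase poison; tunicamycin at 0.001, 0.01 and 0.1 µM, which blocks N-linked glycosylation; brefeldin A at 0.001, 0.01 and 0.1 µM, which blocks transport out of the endoplasmic reticulum; tert-butylhydroquinone (tBHQ) at 3, 30 and 300 µM, which activates NRF2; and troglitazone at 50 µM, a PPARγ agonist. Cultures in medium without chemical and DMSO cultures were the controls. The troglitazone dose is the one in the cell table and is not among the doses in the sample labels. The highest rotenone dose in the labels is not in the cell table. The paper states a single biological replicate per condition for its main experiment, which was read on another platform (TempO-LINC). For the Parse cultures, its supplement does not say how many replicates were grown. The table of cells splits most conditions into several sample names, which carry a replicate number and a further number. The further number is called the run here, and no source used here defines it. Nor do these sources say whether the numbered replicates were grown and treated separately. Each sample name is called a culture and is given by its condition and run. The spread between cultures may therefore be technical, and p-values measure that spread only.

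NF-κB is a family of transcription factors held in the cytoplasm by inhibitor proteins until a signal such as IL-1 or TNF activates the IκB kinase, which marks the inhibitor for destruction. The freed factors switch on chemokine genes and, with them, genes that end the signal. In the liver, chemokines released by hepatocytes and biliary cells call in neutrophils, monocytes and lymphocytes. CXCL8 (interleukin 8) and the related CXCL1, CXCL2, CXCL3, CXCL5 and CXCL6 attract neutrophils through CXCR2, CCL2 attracts monocytes through CCR2, and CCL20 attracts lymphocytes and dendritic cells through CCR6. NFKBIA encodes IκBα, the inhibitor that carries NF-κB back out of the nucleus, and TNFAIP3 encodes A20, a ubiquitin-editing enzyme that shuts down signalling above the IκB kinase.

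The 6 CXCL genes lie on chromosome 4 of GRCh38 (GENCODE 44), between CXCL8, which begins at position 73740519, and CXCL2, which ends at position 74099196. CCL2 is on chromosome 17, CCL20 on chromosome 2, NFKBIA on chromosome 14 and TNFAIP3 on chromosome 6, and all 10 genes are annotated as protein-coding. The sites below are shown because most of these genes carry the letters that NF-κB binds close to their start. RefSeq promoters (GRCh38) were matched for 9 of the 10 genes, all but CCL2. Within 250 bases before the RefSeq start, searched on both strands, the κB consensus was found in 8 of the 9 promoters, against 9.96% of 35116 promoters. Each run is 30 bases, 5′ to 3′ on the strand of its gene, with the κB letters in capitals.
CXCL8, chr4:73740467-73740496, plus strand: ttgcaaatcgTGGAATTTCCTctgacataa
CXCL1, chr4:73869304-73869333, plus strand: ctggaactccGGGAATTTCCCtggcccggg
CXCL2, chr4:74099254-74099283, minus strand: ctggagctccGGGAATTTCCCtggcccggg
CXCL3, chr4:74038749-74038778, minus strand: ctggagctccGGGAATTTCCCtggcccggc
CXCL5, chr4:73998749-73998778, minus strand: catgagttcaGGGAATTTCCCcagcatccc
CXCL6, chr4:73836578-73836607, plus strand: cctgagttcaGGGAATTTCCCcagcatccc
CCL20, chr2:227813753-227813782, plus strand: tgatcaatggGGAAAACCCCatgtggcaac
NFKBIA, chr14:35404811-35404840, minus strand: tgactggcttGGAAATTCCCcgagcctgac
TNFAIP3, chr6:137867188-137867217, plus strand: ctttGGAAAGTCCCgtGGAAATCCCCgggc

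CXCL8 held no exact match, and the run in capitals differs from the consensus by 1 letter; 63.9% of all promoters hold a run that is exact or at most 1 letter off. CXCL1, CXCL2, CXCL3, CXCL5 and CXCL6 share the same capitals, and TNFAIP3 has 2 runs. The GENCODE gene begins upstream of the RefSeq start by 118 bases for CXCL3 and by 8103 bases for CCL20, so both sites lie inside the GENCODE gene. CXCL8 was also the only one of the 9 promoters with the AP-1 motif TGANTCA, searched on both strands, which 6.57% of all promoters hold. The longer stretches of CXCL8, which fell under rotenone, and of NFKBIA and TNFAIP3, which moved the other way under rotenone, end just before the first GENCODE base. The capitals mark the AP-1 letters and the κB-like letters in CXCL8 and the κB letters in the others.
CXCL8, chr4:73740399-73740518, plus strand: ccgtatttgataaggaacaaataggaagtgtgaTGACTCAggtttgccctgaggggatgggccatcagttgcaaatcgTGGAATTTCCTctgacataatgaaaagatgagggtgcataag
NFKBIA, chr14:35404750-35404869, minus strand: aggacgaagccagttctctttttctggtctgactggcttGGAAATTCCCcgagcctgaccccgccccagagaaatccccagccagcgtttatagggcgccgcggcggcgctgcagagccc
TNFAIP3, chr6:137867094-137867213, plus strand: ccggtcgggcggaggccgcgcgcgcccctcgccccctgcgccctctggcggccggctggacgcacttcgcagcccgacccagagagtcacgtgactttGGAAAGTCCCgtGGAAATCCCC
A match describes these letters only, and no binding was measured in this study.

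The cell table held 12976 cells in 47 cultures of 20 conditions, with a median of 45221 UMIs per cell and no barcode shared by 2 cells. A minimum of 500 genes and a maximum of 20% mitochondrial UMIs left 8406 cells, and the 38 cultures with at least 30 such cells were used, which held 37 to 1434 cells and 1741603 to 97081214 UMIs. DMSO was represented by runs 3, 4, 5 and 6. The median mitochondrial share was 2.47% in DMSO run 4 and 12.6 to 16.1% in the other DMSO cultures. The median depth over all cells was 144422 UMIs in rotenone 0.4 µM run 5 and 42177 UMIs in run 6, against 17093.5 to 68055 UMIs in the DMSO cultures. Levels are given as CPM, the UMIs of a gene scaled to 1000000 UMIs of its culture, in which fewer cells of a type and less RNA per cell cannot be told apart. The defining hepatocyte markers were abundant: ALB, APOB, APOA1, HNF4A, ARG1, TTR, CYP3A4 and CPS1 together made up 7443.6 to 15022 CPM in rotenone 0.4 µM cultures, 2260 to 5360.4 CPM in cycloheximide 20 µM cultures and 8860.7 to 21775 CPM in DMSO cultures. That sum is mostly ALB and APOB. With cycloheximide 20 µM the other markers were below every DMSO culture. With rotenone 0.4 µM HNF4A, CPS1, CYP3A4 and ARG1 were below every DMSO culture too. APOA1 and TTR overlapped DMSO with rotenone: 6.44 to 103 against 86.9 to 307 CPM, and 10.5 to 74.7 against 53.0 to 126 CPM. HNF4A was 95.7 to 137 CPM with DMSO. It was 24.1 to 44.7 CPM with rotenone 0.4 µM and 24 to 46.6 CPM with cycloheximide 20 µM. CPS1 was 10.5 to 86.8 and 16.9 to 18.2 CPM in these treatments, against 172 to 322 CPM with DMSO. CYP3A4 was 3.92 to 5.99 CPM with rotenone 0.4 µM and 1.07 to 1.20 CPM with cycloheximide 20 µM, against 20.5 to 60.8 CPM with DMSO, and ARG1 at most 3.26 and 0.701 CPM, against 12 to 20.8 CPM. The part of these shifts in the results below was not tested.

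Rotenone at 0.4 µM separated the chemokines from the feedback genes. CXCL8, CXCL1, CXCL2, CCL2 and CCL20 fell and NFKBIA and TNFAIP3 rose against DMSO, while CXCL3 did not pass the test. That is 5 genes lower and 2 higher of the 8 that passed the filter on low counts, beside 42.2% lower and 19.1% higher among all 19831 genes tested by edgeR's quasi-likelihood test at an adjusted p of 0.05. CXCL5 and CXCL6 were too low to be tested. The median log2 fold change was -2.73 over the 8 genes and -0.56 over all genes tested, so that each fold change below stands against a general shift downward on the CPM scale. With TMM factors the median of all genes tested was -0.10, and 5570 genes were called higher and 6078 lower, against 3794 higher and 8373 lower with total counts; the calls of these 8 genes stayed the same.

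CXCL8 was 23.6 and 17.8 CPM in rotenone 0.4 µM runs 5 and 6, against 141, 176, 130 and 225 CPM in DMSO runs 3, 4, 5 and 6. Both rotenone cultures lay below every DMSO culture, and the fitted log2 fold change was -3.00 (SE 0.293, edgeR adjusted p = 5.01e-06). Per cell, CXCL8 gave 5.37 and 1.16 UMIs in the rotenone 0.4 µM cultures, against 7.07, 4.72, 13.9 and 11.7 UMIs in the DMSO cultures. The deeply read rotenone run 5 thus overlapped the DMSO cultures in UMIs per cell, although not in CPM. Within run 5 the log2 ratio of rotenone 0.4 µM over DMSO was -2.46 (95% interval -2.53 to -2.38, counting error only) and within run 6 it was -3.66 (-3.94 to -3.39).

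CXCL1, CXCL2 and CXCL3 encode nearly identical chemokines that share stretches of sequence. Of the windows of 50 bases in their GENCODE exons, 139 occurred in both CXCL2 and CXCL3 (9.63% of those of CXCL2 and 6.01% of those of CXCL3) and 60 in both CXCL1 and CXCL2 (4.57% and 4.16%), so a few of their reads may have been split between them. CXCL1 was 0.981 and 0.700 CPM in rotenone 0.4 µM cultures, against 11.2, 9.07, 16.2 and 8.51 CPM in DMSO cultures, a log2 fold change of -3.67 (SE 0.411, edgeR adjusted p = 1.33e-05). It rested on 92 and 5 UMIs in the rotenone cultures, and the groups did not overlap. CXCL2 was 4.36 and 7.98 CPM in rotenone 0.4 µM cultures, against 31.9, 26.9, 48.3 and 73.7 CPM in DMSO cultures (log2 fold change -2.95, SE 0.441, edgeR adjusted p = 0.000114).

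CXCL3 stood apart from its neighbours. It was 10.8 CPM in rotenone 0.4 µM run 5 and 45.6 CPM in run 6, against 21.7, 17.6, 21.1 and 25.5 CPM in DMSO cultures. The rotenone cultures lay on either side of the DMSO cultures, run 5 below all 4 and run 6 above all 4, and the fitted log2 fold change of 0.36 did not pass the test (SE 0.421, edgeR adjusted p = 0.48). Within run 5 the log2 ratio over DMSO was -0.96 (95% interval -1.10 to -0.82) and within run 6 it was 0.84 (0.53 to 1.15), both with counting error only. The direction therefore rested on the culture: it was -0.99 without rotenone run 6 (adjusted p = 0.0241) and 1.08 without rotenone run 5 (adjusted p = 0.00603). Run 6 kept 110 of its 231 cells and had a median mitochondrial share of 20.4%, while run 5 kept 413 of 493 cells at 15.0%; the part of these differences in the result was not tested.

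The CC chemokines followed CXCL8. CCL20 was 2.29 and 0.840 CPM in rotenone 0.4 µM cultures, against 22.9, 27.2, 18.9 and 22.2 CPM in DMSO cultures, with a log2 fold change of -3.64 (SE 0.381, edgeR adjusted p = 7.94e-06). The DMSO cultures agreed closely for this gene and both rotenone cultures lay far below them. CCL2 was 0.939 and 0.420 CPM in rotenone 0.4 µM cultures, against 2.63, 5.27, 5.12 and 5.40 CPM in DMSO cultures (log2 fold change -2.50, SE 0.463, edgeR adjusted p = 0.00054). In rotenone run 6 these values came from 6 UMIs of CCL20 and 3 UMIs of CCL2; without rotenone run 5 the fold changes were -4.74 and -3.40, and both calls were kept.

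The feedback genes went the other way. NFKBIA was 244 and 792 CPM in rotenone 0.4 µM runs 5 and 6, against 84.4, 77.5, 140 and 88.6 CPM in DMSO cultures, a log2 fold change of 2.40 (SE 0.370, edgeR adjusted p = 0.000141). Both rotenone cultures lay above every DMSO culture, and they differed among themselves more than the DMSO cultures did. Per cell, NFKBIA gave 55.4 and 51.5 UMIs in rotenone 0.4 µM cultures, against 4.24, 2.09, 15.0 and 4.59 UMIs in DMSO cultures. TNFAIP3 was 190 and 418 CPM in rotenone 0.4 µM cultures, against 64.5, 101, 75.0 and 88.0 CPM in DMSO cultures (log2 fold change 1.89, SE 0.283, edgeR adjusted p = 0.000114). It too was higher in run 6, and the groups did not overlap. Without rotenone run 6 the fold changes were 1.32 for NFKBIA (adjusted p = 0.0029) and 1.22 for TNFAIP3 (adjusted p = 0.00189), and without rotenone run 5 that of NFKBIA was 3.01.

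**Figure D1:**
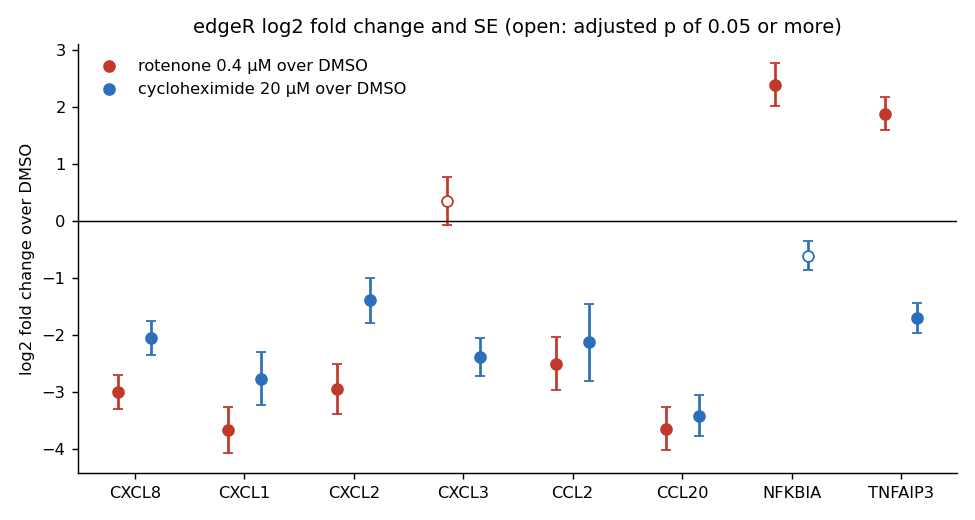
edgeR log2 fold changes over DMSO of the 8 tested genes in rotenone 0.4 µM and cycloheximide 20 µM cultures (2 cultures each, against 4 DMSO cultures), with bars of 1 SE and open symbols where the adjusted p was 0.05 or more. NFKBIA and TNFAIP3 sit at 2.40 and 1.89 with rotenone and at -0.60 and -1.70 with cycloheximide, while CXCL8 sits below 0 with both.

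The rotenone doses could be compared in run 5, with 1 culture at 0.2 µM and no test. At 0.2 µM the chemokines were already low: CXCL8 was 16.5 CPM in the rotenone 0.2 µM culture, against a DMSO range of 130 to 225 CPM, a log2 ratio over the summed DMSO cultures of -3.12 (95% interval -3.20 to -3.05, counting error only). CXCL1 was 0.773 CPM (-4.17), CXCL2 10.3 CPM (-2.14), CCL20 4.80 CPM (-2.11) and CCL2 0.834 CPM (-2.46), each below all 4 DMSO cultures. Of the 3 genes that reached 50 CPM and 50 UMIs, CXCL8 alone was 2-fold lower and none was 2-fold higher, beside 16.4% lower and 19.2% higher of all 5515 genes judged by this rule.

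Over whole cultures, NFKBIA and TNFAIP3 did not stand high in CPM at the lower rotenone dose. NFKBIA was 115 CPM in the rotenone 0.2 µM culture and 244 CPM in the 0.4 µM culture of run 5, against 140 CPM in DMSO run 5. TNFAIP3 was 60.9 CPM at 0.2 µM and 190 CPM at 0.4 µM in run 5, against 75.0 CPM in DMSO run 5. The log2 ratio over DMSO within run 5 at 0.2 µM was -0.27 for NFKBIA (95% interval -0.32 to -0.22) and -0.30 for TNFAIP3 (-0.37 to -0.23), both with counting error only. Over the summed DMSO cultures the ratio of NFKBIA was -0.04, but 0.18 with TMM factors and 0.45 without DMSO run 5, so its direction at 0.2 µM is not settled. CXCL3 was 9.62 CPM at 0.2 µM, close to the 10.8 CPM at 0.4 µM in the same run and below the 21.1 CPM of DMSO run 5. The low chemokine levels thus stood at both doses, and the high feedback levels over whole cultures at 0.4 µM only. The lower dose had a single culture, and its ranges of cells, given below, differed in the feedback genes.

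**Figure D2:**
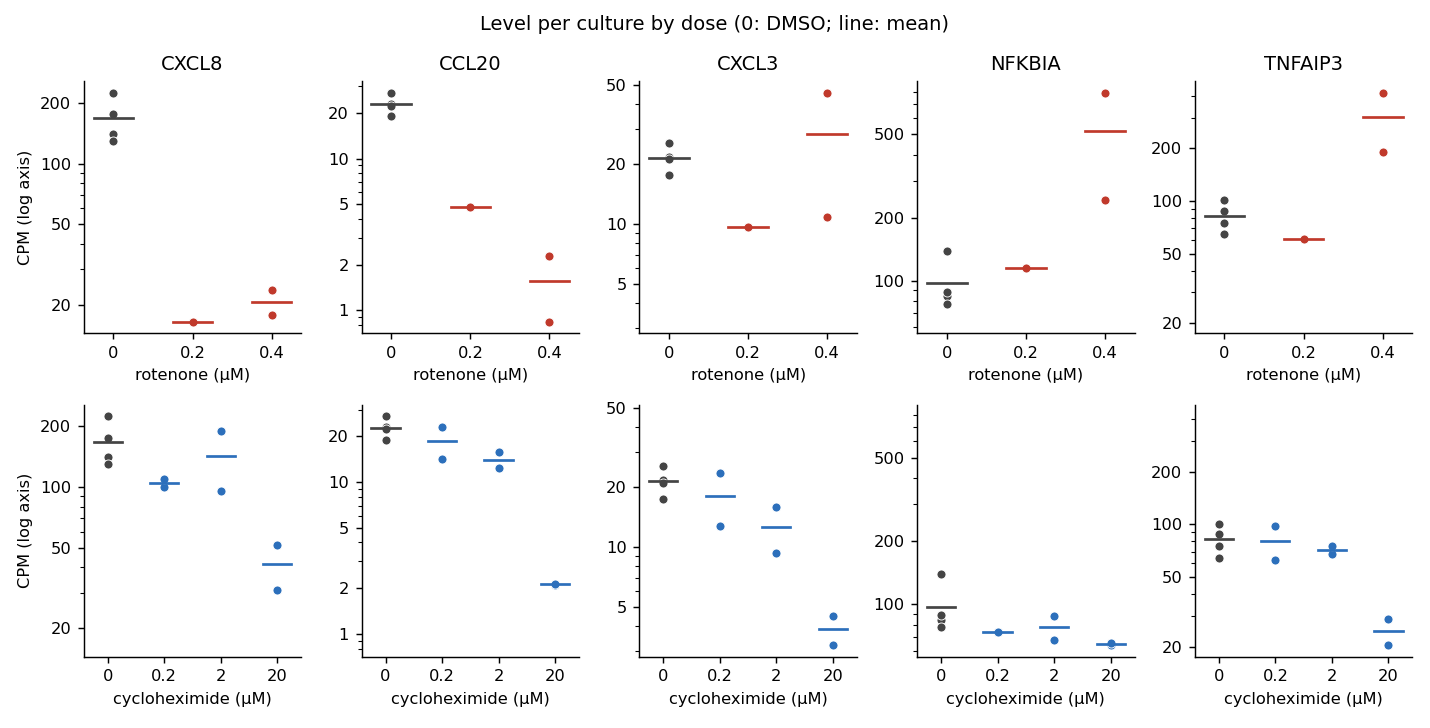
CPM (log axis) of CXCL8, CCL20, CXCL3, NFKBIA and TNFAIP3 in each culture by dose of rotenone and of cycloheximide in µM, with DMSO at 0 and short lines at the means. NFKBIA reaches 244 and 792 CPM at 0.4 µM rotenone and 115 CPM at 0.2 µM, while CXCL8 lies at 16.5 to 23.6 CPM at both rotenone doses.

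Cycloheximide at 20 µM lowered chemokines and TNFAIP3 alike. CXCL8, CXCL1, CXCL2, CXCL3, CCL2, CCL20 and TNFAIP3 fell against DMSO and none rose, 7 lower of the 8 tested, beside 13.2% lower and 6.52% higher of all 18706 genes tested by edgeR. NFKBIA did not pass the test. The median log2 fold change was -2.09 over the 8 genes and -0.12 over all genes tested. This comparison and that of rotenone share the 4 DMSO cultures. All 8 hepatocyte markers were also lower in the cycloheximide 20 µM cultures than in every DMSO culture, and their part in these falls was not tested.

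CXCL8 was 31.1 and 51.9 CPM in cycloheximide 20 µM runs 3 and 4, against 141, 176, 130 and 225 CPM in DMSO cultures (log2 fold change -2.05, SE 0.303, edgeR adjusted p = 0.00079). CCL20 was 2.10 and 2.14 CPM, against 22.9, 27.2, 18.9 and 22.2 CPM in DMSO cultures, with a fold change of -3.42 (SE 0.358, edgeR adjusted p = 8.96e-05). Both cycloheximide cultures were below every DMSO culture for both genes, and the value of CCL20 came from 21 and 4 UMIs. CXCL3, which split the rotenone cultures, was 4.51 and 3.21 CPM in the cycloheximide 20 µM cultures, against 21.7, 17.6, 21.1 and 25.5 CPM in DMSO cultures (log2 fold change -2.39, SE 0.331, edgeR adjusted p = 0.000529). CXCL1 was 1.90 and 1.07 CPM, from 21 UMIs over both cultures, against 8.51 to 16.2 CPM in DMSO cultures (log2 fold change -2.76, SE 0.466, edgeR adjusted p = 0.00182). Without cycloheximide run 3, which left run 4 with its 37 kept cells, the fold change was -3.42.

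The falls of CXCL2 and CCL2 were less firm. CXCL2 was 14.3 and 21.4 CPM in cycloheximide 20 µM cultures, against 31.9, 26.9, 48.3 and 73.7 CPM in DMSO cultures (log2 fold change -1.39, SE 0.401, edgeR adjusted p = 0.0303). The groups did not overlap, but the call was lost without DMSO run 6 (adjusted p = 0.0552), without cycloheximide run 3 (0.229) and without cycloheximide run 4 (0.0519). CCL2 was 0.501 and 2.68 CPM, from 5 UMIs in each cycloheximide culture, against 2.63, 5.27, 5.12 and 5.40 CPM in DMSO cultures (log2 fold change -2.13, SE 0.679, edgeR adjusted p = 0.0452). The groups overlapped. Its call was lost without DMSO run 4 (adjusted p = 0.0845), run 5 (0.0676) or run 6 (0.0778), and without cycloheximide run 3, where the fold change was -0.75 (adjusted p = 0.528). Without cycloheximide run 4, which kept 37 cells, it was -3.15.

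TNFAIP3 was 28.8 and 20.3 CPM in cycloheximide 20 µM cultures, against 64.5, 101, 75.0 and 88.0 CPM in DMSO cultures, a log2 fold change of -1.70 (SE 0.261, edgeR adjusted p = 0.00104). Both cycloheximide cultures lay below all DMSO cultures. NFKBIA was 63.7 and 65.3 CPM in cycloheximide 20 µM cultures, against 84.4, 77.5, 140 and 88.6 CPM in DMSO cultures. It was lower in both cultures, and its fold change of -0.60 did not pass the test (SE 0.257, edgeR adjusted p = 0.123).

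At the lower cycloheximide doses none of the 8 genes was called, except CXCL8 at 0.2 µM when the run was a block (log2 fold change -0.58, adjusted p = 0.0382). CXCL8 was 100 and 109 CPM at 0.2 µM, below every DMSO culture, and 96.1 and 190 CPM at 2 µM, against 130 to 225 CPM in DMSO cultures. CCL20 was 14.1 and 23.0 CPM at 0.2 µM and 15.8 and 12.3 CPM at 2 µM, against 18.9 to 27.2 CPM in DMSO cultures. CXCL3 was 12.7 and 23.5 CPM at 0.2 µM and 9.31 and 16 CPM at 2 µM, the 2 µM values below the DMSO range of 17.6 to 25.5 CPM. TNFAIP3 was 68.1 and 75.5 CPM at 2 µM, inside the DMSO range of 64.5 to 101 CPM.

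Rotenone at 0.4 µM and cycloheximide at 20 µM were also compared directly, a contrast chosen after their values were seen. NFKBIA, TNFAIP3 and CXCL3 were higher and CXCL2 was lower in rotenone cultures, 3 higher and 1 lower of 6 genes tested, beside 16.4% higher and 27.4% lower of all 17444 genes tested by edgeR. NFKBIA was 244 and 792 CPM in rotenone cultures and 63.7 and 65.3 CPM in cycloheximide cultures (log2 fold change 3.00, adjusted p = 0.000315). TNFAIP3 was 190 and 418 CPM in rotenone cultures and 28.8 and 20.3 CPM in cycloheximide cultures (3.60, adjusted p = 5.52e-05). The difference in NFKBIA was 1.92 and that in TNFAIP3 2.92 without rotenone run 6, and NFKBIA was 3.62 without rotenone run 5. CXCL3 differed by 2.77 (adjusted p = 0.00354), and by 1.42 without rotenone run 6 (adjusted p = 0.0799) and 3.49 without run 5. CXCL2 differed by -1.55 (adjusted p = 0.0159), a call lost without rotenone run 5 (-1.13, adjusted p = 0.158).

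CXCL8 and CCL20 did not differ past the threshold between the cultures of these chemicals. The log2 fold change of rotenone over cycloheximide was -0.97 for CXCL8 (adjusted p = 0.0589), and -1.32 without cycloheximide run 3 (adjusted p = 0.0363). It was -0.27 for CCL20 (adjusted p = 0.733), and -1.31 without rotenone run 5 and 0.12 without run 6, neither past the threshold. These contrasts set runs 5 and 6 of rotenone against runs 3 and 4 of cycloheximide, so chemical and run cannot be told apart in them.

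**Figure D3:**
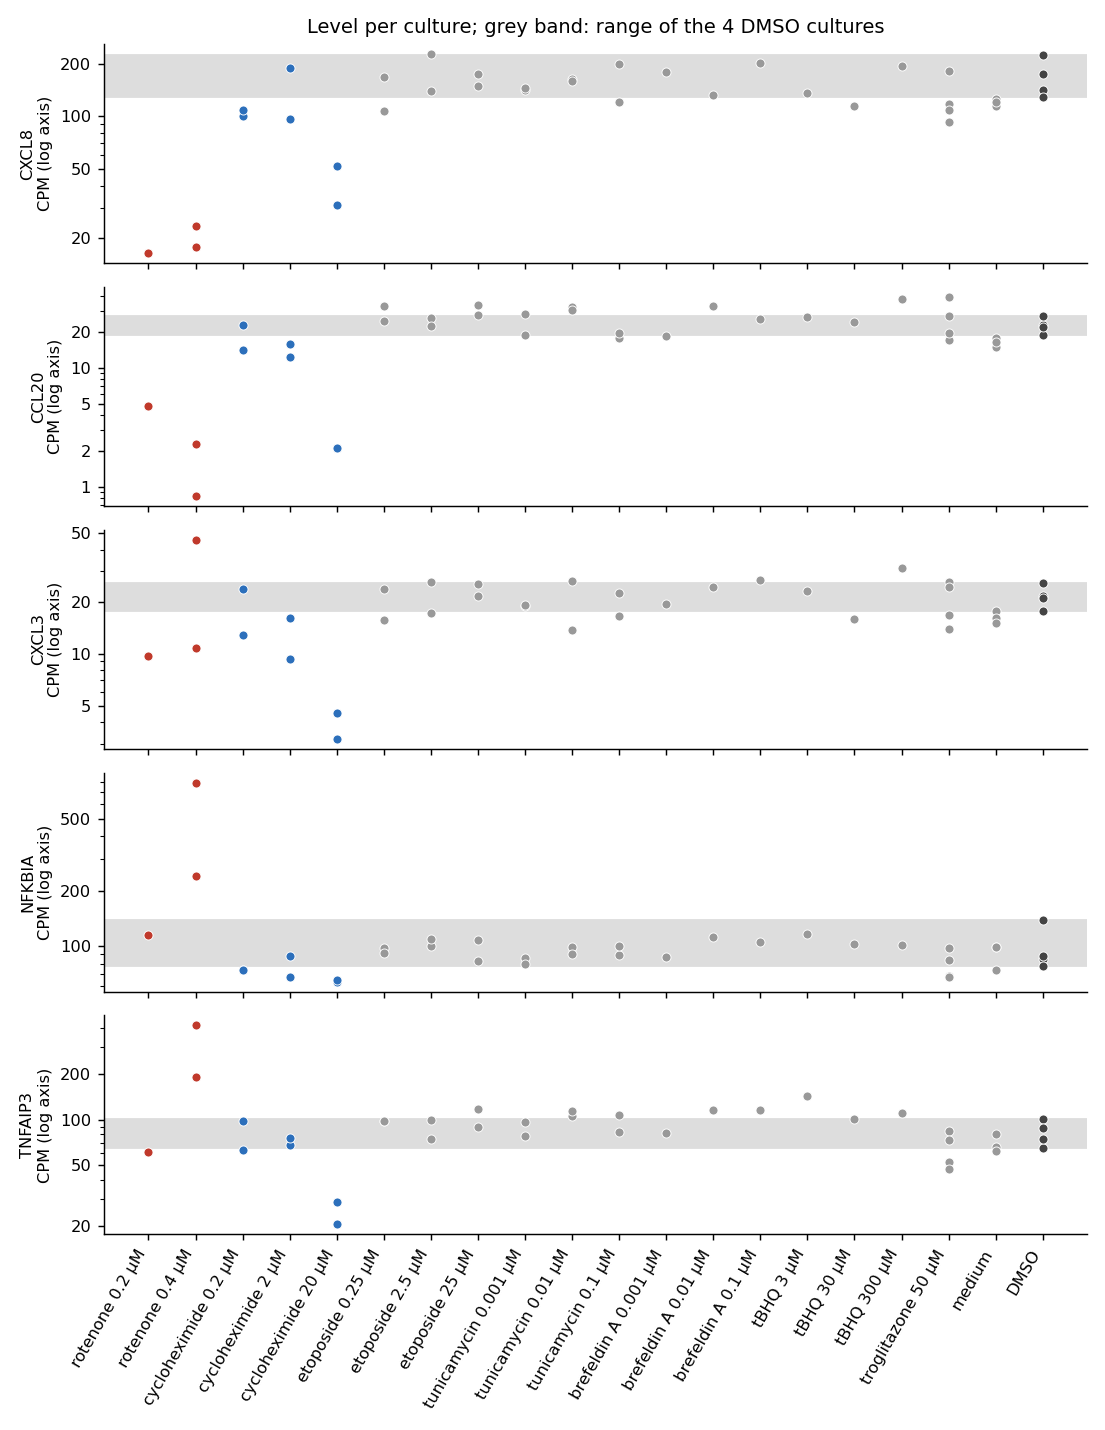
CPM (log axis) of CXCL8, CCL20, CXCL3, NFKBIA and TNFAIP3 in each of the 38 cultures, ordered by chemical and dose, with the range of the 4 DMSO cultures as a grey band. The rotenone and cycloheximide 20 µM cultures leave the band in most panels, and most points of the other conditions lie in it or near it.

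In the other 10 comparisons with at least 2 cultures, medium, troglitazone, the lower cycloheximide doses, etoposide and tunicamycin, none of the 8 genes was called by edgeR or by DESeq2. This was so in 80 tests of these genes, and the lowest adjusted p was 0.542. The unadjusted edgeR p was under 0.05 in 10 of them, beside 1.30 to 7.31% of all genes tested in these comparisons. In medium this held for 3 of the 8 genes, CXCL8, CXCL3 and CCL20, all lower, beside 2.53% of all genes tested. By adjusted p, the share of all genes called was 0% for medium, cycloheximide 0.2 µM, etoposide and the lower tunicamycin doses. It was 0.078% higher for troglitazone, 0.00502% higher for cycloheximide 2 µM and 0.00538% higher for tunicamycin 0.1 µM. The fold changes of the 8 genes ran from -0.79 (CXCL2 at cycloheximide 0.2 µM) to 0.79 (CCL2 at tunicamycin 0.1 µM). In counts simulated for the troglitazone comparison, 33 of 50 genes changed 2-fold and 7 of 50 changed 1.5-fold were recovered. With 2 cultures against 4, as in most of these comparisons, the counts simulated for rotenone gave 9 of 50 at 2-fold and 2 of 50 at 1.5-fold, so changes of this size could be missed.

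CXCL8 was 121 ± 5.08 CPM in medium cultures (SD, n = 3) and 125 ± 39.2 CPM in troglitazone cultures (SD, n = 4), against 168 ± 42.8 CPM in DMSO cultures (SD, n = 4). All 3 medium cultures lay below every DMSO culture for CXCL8, with a highest value of 125 CPM against a lowest of 130 CPM. The same held for CCL20, at 17.8 against 18.9 CPM, and neither gene was called. The highest level of CXCL8 in all 38 cultures, 228 CPM, was in etoposide 2.5 µM run 4, close to the 225 CPM of DMSO run 6. CCL2 was 6.64 and 8.93 CPM in tunicamycin 0.1 µM cultures, above the DMSO range of 2.63 to 5.40 CPM, with an adjusted p of 0.9999 by edgeR. TNFAIP3 was 105 and 114 CPM in tunicamycin 0.01 µM cultures, both above the highest DMSO value of 101 CPM (log2 fold change 0.43, edgeR adjusted p = 1).

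Brefeldin A and tBHQ had 1 culture per dose in run 4 and allow no test. None of the 3 or 4 genes that could be judged was 2-fold higher or lower in these 6 cultures. Of all genes judged, 0.0668, 0.511 and 0.0907% were higher and 1.51, 0.378 and 0.181% lower at brefeldin A 0.001, 0.01 and 0.1 µM. At tBHQ 3, 30 and 300 µM these shares were 0.269, 0.246 and 0.226% higher and 0.314, 0.424 and 0.633% lower. TNFAIP3 was 144 CPM at tBHQ 3 µM, 101.1 CPM at 30 µM and 111 CPM at 300 µM, and 81.8, 115 and 116 CPM at brefeldin A 0.001, 0.01 and 0.1 µM, against 64.5 to 100.7 CPM in DMSO cultures. At tBHQ 3 µM the log2 ratio of TNFAIP3 over summed DMSO was 0.94 (95% interval 0.85 to 1.02, counting error only), and 1.01 with TMM factors, just past 2-fold. CCL20 was 37.8 CPM at tBHQ 300 µM and 33.3 CPM at brefeldin A 0.01 µM, against 18.9 to 27.2 CPM in DMSO cultures (log2 ratios 0.87 and 0.69). CXCL1 was 23.8 CPM at tBHQ 300 µM, the highest of the 38 cultures, against 8.51 to 16.2 CPM in DMSO cultures (log2 ratio 0.77). CCL2 was 7.63 CPM at tBHQ 300 µM and 7.57 CPM at brefeldin A 0.1 µM, against 2.63 to 5.40 CPM in DMSO cultures (log2 ratios 0.74 and 0.73). TNFAIP3 was thus above every DMSO culture in all conditions of these chemicals but brefeldin A 0.001 µM, without a dose order for tBHQ. The ratios are to summed DMSO, which was 75.3 CPM for TNFAIP3 and 20.7 CPM for CCL20. DMSO run 4, of the same run as these cultures, held the highest DMSO values of both, 100.7 and 27.2 CPM. Their ratios to that culture are therefore smaller. CXCL1 went the other way, being lower in DMSO run 4 than in summed DMSO.

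CXCL5 and CXCL6, the remaining neutrophil attractants of the cluster on chromosome 4, were hardly seen at all. CXCL5 gave 2 UMIs in all 38 cultures together and 0 in 36 of them, where 3 UMIs would have been 0.0309 to 1.72 CPM. CXCL6 gave 12 UMIs in all and 0 in 29 cultures, and 3 of the 12 were in rotenone 0.4 µM run 5. No change of either could be detected at this depth.

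The share of cells with a UMI of each gene was compared after every cell was thinned at random to 5000 UMIs, since depth per cell differed. Every kept cell of the rotenone, cycloheximide 20 µM and DMSO cultures held that many. CXCL8 was seen in 9.37% of 523 rotenone 0.4 µM cells (exact binomial 95% interval 7.01 to 12.2) and in 12.6% of 262 cycloheximide 20 µM cells (8.83 to 17.2), against 36.7% of 781 DMSO cells (33.4 to 40.2). Without thinning these shares were 61.2%, 43.1% and 69.7%. The intervals cover counting error over cells, not the spread between cultures. By culture, the CXCL8 share was 10.2% and 6.36% with rotenone 0.4 µM, against 33.6, 48.0, 33.1 and 41.9% with DMSO, so that no culture overlapped.

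NFKBIA was seen in 62.9% of rotenone 0.4 µM cells (58.6 to 67.1), 36.7% of 449 rotenone 0.2 µM cells (32.3 to 41.4) and 24.0% of cycloheximide 20 µM cells (19 to 29.7), against 37.8% of DMSO cells (34.4 to 41.3). TNFAIP3 was seen in 54.3% of rotenone 0.4 µM cells and 11.8% of cycloheximide 20 µM cells, against 27.02% of DMSO cells. By culture, the NFKBIA share was 57.6% and 82.7% in rotenone 0.4 µM runs 5 and 6, against 31.2, 32.3, 47.6 and 30.1% in DMSO cultures. A cell with a UMI is not a cell in which the gene rose, since DMSO cells also held UMIs of NFKBIA. CCL20 was seen in 0.574% of rotenone 0.4 µM cells against 8.32% of DMSO cells, and CXCL2 in 1.91% against 16.9%. No cell class that lacks these genes was defined, so the share that free RNA gives was not measured.

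**Figure D4:**
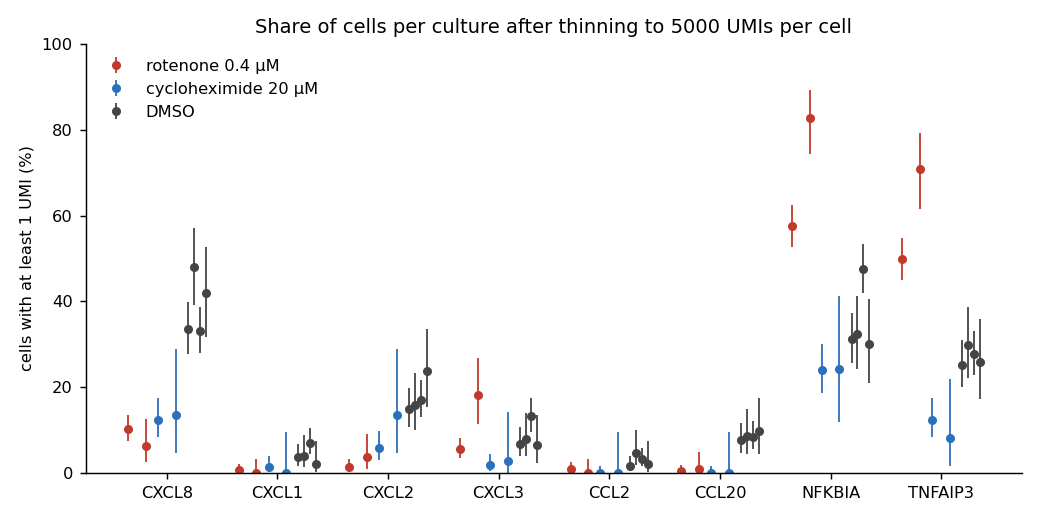
Percent of cells with at least 1 UMI of each of 8 genes after thinning to 5000 UMIs per cell, 1 point per culture with its exact binomial 95% interval, for rotenone 0.4 µM, cycloheximide 20 µM and DMSO cultures. The NFKBIA points of rotenone lie at 57.6 and 82.7%, above all DMSO points, and its CXCL8 points at 10.2 and 6.36%, below them.

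Within cultures, the UMIs of CXCL8 were spread unevenly over cells. After thinning, the 10% of DMSO cells with most CXCL8 held 54.6% of its UMIs, and the same share was 57.0% for TNFAIP3 and 44.6% for NFKBIA. NFKBIA was seen in 46.3% of the 287 DMSO cells with a CXCL8 UMI and in 32.8% of the other 494 cells. TNFAIP3 was seen in 38.3% and 20.4% of these cells, and CXCL2 in 27.9% and 10.5%. These shares pool the DMSO cultures. In DMSO run 3 alone NFKBIA was seen in 32.1% and 30.7%, nearly the same, and TNFAIP3 in 39.3% and 18.1%. The NFKBIA difference was therefore not alike in every DMSO culture. In rotenone 0.4 µM cells the cultures differed: in run 5 NFKBIA was seen in 38.1% of the 42 cells with a CXCL8 UMI and 59.8% of the other 371 cells, and in run 6 in all 7 cells with a CXCL8 UMI and 81.6% of the other 103 cells. A UMI of at least 1 of the 8 chemokines was present in 19.5% of rotenone 0.4 µM cells and 19.8% of cycloheximide 20 µM cells, against 50.6% of DMSO cells.

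To see how these transcripts went with hepatocyte marker RNA, the cells of each culture were ranked by the share of their UMIs from the 8 hepatocyte markers. They were then cut into 3 equal parts. Such a part is a range of a score and not a cell type. Rankings by cholangiocyte and mesenchymal markers are not given here. The values below therefore do not say whether the genes also go with those markers. Over the 33 cultures other than rotenone and cycloheximide 20 µM, CXCL8, CXCL1, CXCL2, CXCL3, CCL20, NFKBIA and TNFAIP3 were higher in the part with most marker RNA than in the part with least in all 33, and CCL2 in 32. The median ratio of the highest over the lowest part was 3.77 for CXCL8, 7.27 for CXCL2, 5.36 for CCL20, 3.52 for TNFAIP3 and 1.78 for NFKBIA. In DMSO runs 3, 4, 5 and 6 CXCL8 was 196, 256, 182 and 353 CPM in the highest part and 57.9, 87.7, 54.7 and 84.2 CPM in the lowest.

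In the rotenone 0.4 µM cultures this difference was small or turned. CXCL8 was 24.1 and 20.4 CPM in the highest part and 17.05 and 18.6 CPM in the lowest. NFKBIA was 253 and 765 CPM in the highest part, against 98.7 to 167 CPM in that of DMSO cultures, and 243 and 1058 CPM in the lowest, against 54.5 to 93.7 CPM. TNFAIP3 was 179 and 387 CPM in the highest part, against 85.1 to 166 CPM with DMSO, and 221 and 594 CPM in the lowest, against 17.3 to 36.3 CPM. With rotenone 0.4 µM both feedback genes thus lay above all DMSO cultures in both ranges of cells. In the rotenone 0.2 µM culture NFKBIA was 97.0 CPM in the highest part and 160 CPM in the lowest. TNFAIP3 was 41.9 CPM in the highest part and 109 CPM in the lowest of that culture. At 0.2 µM both genes thus lay above all DMSO cultures in the lowest part and below them in the highest. In cycloheximide 20 µM run 3, CXCL8 was 26.2 CPM in the highest part and 36.6 CPM in the lowest, while in run 4 it was 83.9 and 20.1 CPM. The parts also differed in depth: in DMSO run 3 the median was 34823.5 UMIs per cell in the highest part and 20038 UMIs in the lowest, with median mitochondrial shares of 15.3% and 12.6%. The part of depth in these ratios was not tested.

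**Figure D5:**
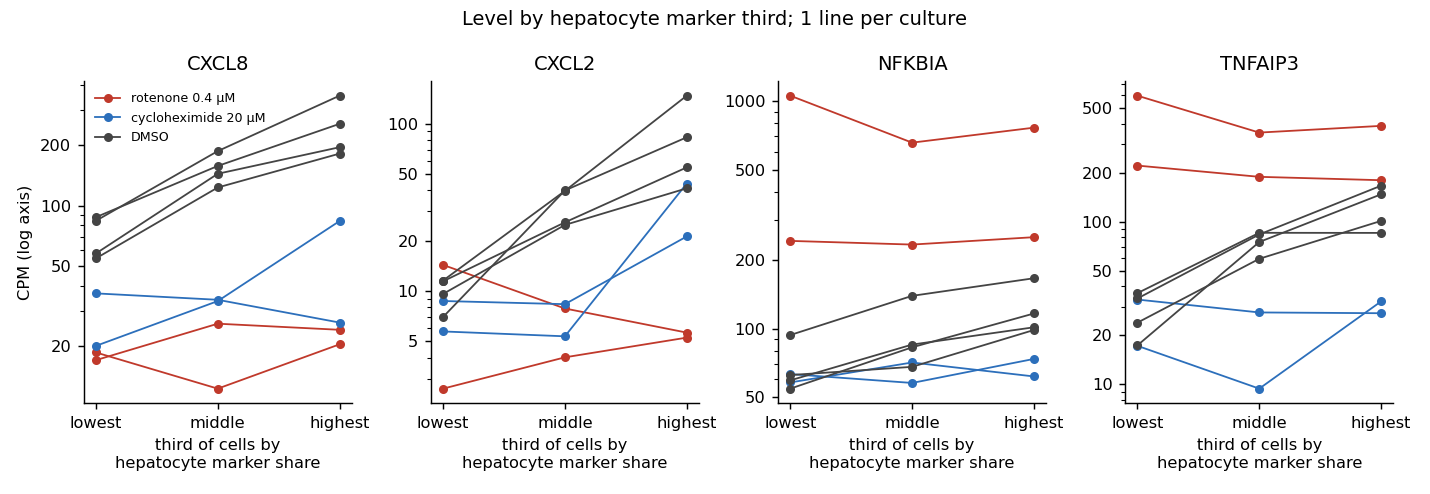
CPM (log axis) of CXCL8, CXCL2, NFKBIA and TNFAIP3 in the lowest, middle and highest part of the cells of each culture by hepatocyte marker share, with 1 line per rotenone 0.4 µM, cycloheximide 20 µM and DMSO culture. All 4 DMSO lines climb for CXCL8, between 54.7 and 353 CPM, while the rotenone lines stay between 12.3 and 25.9 CPM.

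Markers of other cells moved as well. The 8 mesenchymal markers summed to 52.8 to 55.5 CPM in rotenone 0.4 µM cultures and 107 to 119 CPM in cycloheximide 20 µM cultures, against 122 to 241 CPM in DMSO cultures. With cycloheximide 20 µM the list was split: PDGFRB was 33.7 to 39.1 CPM, against 5.85 to 20.8 CPM with DMSO, and ACTA2 43.5 to 49.2 CPM, against 33.6 to 38.9 CPM, while COL3A1 was 0.535 to 7.41 CPM, against 36.6 to 109 CPM, and DCN 8.12 to 9.10 CPM, against 16.1 to 46.5 CPM. COL1A2 was at 0 in all DMSO cultures. The 6 cholangiocyte markers summed to 75.7 to 97.8 CPM in rotenone 0.4 µM cultures and 23.4 to 51.4 CPM in cycloheximide 20 µM cultures, against 93.6 to 146 CPM in DMSO cultures, with KRT7 at most 4.28 CPM and EPCAM at most 1.07 CPM in these cultures. With cycloheximide 20 µM this list was split too. KRT19 was 8.1 to 18.2 CPM, against 66.9 to 116 CPM with DMSO, and SCTR 0.40 to 1.07 CPM, against 2.2 to 4.98 CPM. KRT7 was 2.10 to 4.28 CPM, against 0 to 0.83 CPM. SOX9 overlapped DMSO, at 11.8 to 26.8 against 15.15 to 26.0 CPM, as did CFTR and EPCAM. The 7 macrophage markers summed to 13.3 to 23.9 CPM with rotenone 0.4 µM, 17.8 to 26.2 CPM with cycloheximide 20 µM and 14.3 to 36.2 CPM with DMSO, most of it CD68. Their defining genes PTPRC, MARCO and VSIG4 reached at most 2.14, 0.14 and 0.02 CPM in these cultures. The 4 endothelial markers summed to 50.2 to 51.9 CPM with rotenone 0.4 µM and 26.9 to 35.3 CPM with cycloheximide 20 µM, against 54.8 to 96.5 CPM with DMSO, most of it KDR, with VWF at most 0.70 CPM and CDH5 at most 0.208 CPM. The 4 cell cycle genes summed to 372 to 539 CPM with rotenone 0.4 µM and 28.4 to 264 CPM with cycloheximide 20 µM, against 55.2 to 583 CPM with DMSO. Of these, CDK1 (36.8 to 38.3 CPM) and CCNB1 (30.6 to 53.6 CPM) lay above every DMSO culture with rotenone, against 3.73 to 27.6 CPM and 1.46 to 24.9 CPM with DMSO. The part of these shifts in the results was not tested.

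The wider NF-κB pathway was read from a list of 79 other genes. Of the 61 tested with rotenone 0.4 µM, 11 rose and 23 fell (18% and 37.7%), near the 19.1% higher and 42.2% lower of all genes tested, with a median log2 fold change of -0.25 beside -0.56 over all genes tested. By role, 3 of 22 receptors and adaptors rose and 8 fell, 2 of 9 kinases and NF-κB subunits rose and 4 fell, 1 of 8 further inhibitors rose and 2 fell, 1 of the 15 tested targets rose and 7 fell, and 3 of 6 factors of RNA decay rose and 2 fell. These rises depended on the scaling: with TMM factors 21 of the 61 genes were called higher.

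Among the falls, MAP3K14, the kinase of the non-canonical NF-κB pathway, was 25.3 and 15.2 CPM in rotenone 0.4 µM cultures, against 97.0, 116, 99.8 and 106 CPM in DMSO cultures (log2 fold change -2.34, edgeR adjusted p = 1.07e-05). The adaptor TRAF1 fell by 2.18 on the log2 scale, the lipopolysaccharide receptor TLR4 by 1.92 and ZFP36, which speeds the decay of AU-rich messages such as those of chemokines, by 1.86. ZFP36 was 19.5 and 28.3 CPM in rotenone 0.4 µM cultures, against 53.1, 68.2, 142 and 77.6 CPM in DMSO cultures. Among the rises, the adaptor TRAF6 was 60.1 and 84.9 CPM, against 15.5, 15.2, 19.2 and 18.5 CPM in DMSO cultures (log2 fold change 2.08, edgeR adjusted p = 8.8e-06). CHUK, which encodes IKKα, rose by 1.52, NFKB1, which encodes the p105 precursor of an NF-κB subunit, by 1.32, and KHSRP, another AU-rich decay factor, by 1.30. NFKB1 was 372 and 301 CPM in rotenone cultures, against 119, 175, 102 and 147 CPM in DMSO cultures, so that it was high together with NFKBIA and TNFAIP3 in the same cultures.

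CCR6, the receptor of CCL20, was the only chemokine receptor of the 5 listed that could be tested with rotenone. It was 1.22 and 1.40 CPM in rotenone 0.4 µM cultures, against 0.0797, 0, 0.0299 and 0 CPM in DMSO cultures, and was called higher (log2 fold change 4.94, SE 0.690, edgeR adjusted p = 6.76e-05). It was singled out after its values were seen, and its fold change depends on the prior count, because 2 DMSO cultures were at 0.

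With cycloheximide 20 µM, 3 of 60 genes of this list rose and 16 fell (5% and 26.7%), beside 6.52% higher and 13.2% lower of all genes tested, with a median of -0.35 beside -0.12 over all genes tested. The decoy receptor IL1R2 was 5.71 and 2.68 CPM, against 21.4, 35.1, 31.3 and 22.2 CPM in DMSO cultures (log2 fold change -2.53, edgeR adjusted p = 0.000797). The acute-phase genes SAA2 and SAA1 fell by 1.95 and 1.52, although their near-identical sequences make the split of reads between them uncertain, and TRAF1 fell by 1.61. IRAK1, the kinase below the IL-1 receptor, rose by 1.45, the cytokine LIF by 1.24 and TNFRSF11B (osteoprotegerin) by 1.11. No factor of RNA decay was called. Without cycloheximide run 3 the falls of this list numbered 5.

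In the direct contrast of rotenone 0.4 µM with cycloheximide 20 µM, 15 genes of the list were higher and 11 lower of 61 (24.6% and 18%), beside 16.4% higher and 27.4% lower of all genes tested. NFKB1 was 372 and 301 CPM in rotenone cultures and 58.8 and 72.8 CPM in cycloheximide cultures (log2 fold change 2.36, edgeR adjusted p = 0.000134). IRF1, a transcription factor gene that NF-κB switches on, differed by 1.89, TRAF6 by 2.42 and TLR2 by 1.58. LIF differed by -2.67, TNFRSF11B by -2.37, TLR4 by -2.18 and MAP3K14 by -1.95. LIF and TNFRSF11B, called higher with cycloheximide, were called lower with rotenone, each against DMSO.

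Across all 38 cultures, the genes whose log2(CPM + 1) was most like that of CXCL8 among 10930 genes were IPP (Pearson r = 0.94), GAS2 (0.93), ENSG00000284418 (0.93), TEX14 (0.93) and EGLN3 (0.93), a prolyl hydroxylase of the hypoxia pathway. Over the 33 cultures other than rotenone and cycloheximide 20 µM these were 0.64, 0.37, 0.34, 0.45 and 0.56, so most of the likeness came from those 5 cultures. For NFKBIA they were BCL2L11 (0.90), which encodes the pro-apoptotic protein BIM, GADD45B (0.90), CFAP20 (0.90), CTNNB1 (0.90), which encodes β-catenin, and HES1 (0.89), with 0.37, 0.69, 0.40, 0.44 and 0.63 over the 33 cultures. The points share runs, depth and the DMSO vehicle, and these values are descriptions.

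Between the genes themselves, CXCL8 and CXCL2 had r = 0.90 over 38 cultures and 0.605 over the 33. CXCL8 and NFKBIA had r = -0.46 over 38 cultures and 0.41 over the 33, so that the sign turned when the rotenone and cycloheximide 20 µM cultures were left out. NFKBIA and TNFAIP3 had r = 0.75 and 0.47. CXCL3 was nearer to TNFAIP3 (0.73) than to CXCL8 (0.45) over 38 cultures, but not over the 33 (0.52 and 0.63).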

How the data were processed

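HepaRG cells were treated for 24 h and read as 8 sublibraries of one split-pool experiment. The authors deposited UMI counts per gene and cell, aligned to GRCh38 with repeated UMIs collapsed, and a cell table with sample names; the aligner version and the annotation were not given in the sources used here. Gene positions were looked up by gene ID in GENCODE 44 (GRCh38) and promoters in RefSeq. Counts were taken as deposited. Counts were summed per culture over cells that held 500 genes or more and 20% mitochondrial UMIs or less; 9 cultures of fewer than 30 such cells were left out. No doublet caller was run. The 10 genes and all gene lists were chosen with earlier results of these data known.

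Conditions with at least 2 cultures were tested against DMSO with edgeR 4.0.16 (R 4.3.3), using filterByExpr, total-count scaling, the quasi-likelihood test over the 2 groups and Benjamini-Hochberg adjustment over all genes at 0.05. Conditions with 1 culture were described by the log2 ratio to summed DMSO with an exact conditional binomial 95% interval, and 2-fold was counted from 50 CPM and 50 UMIs on. Intervals cover counting error only. Alternatives were TMM and DESeq2 factors, DESeq2 1.42.0, a total without mitochondrial and ribosomal protein genes, no low-count filter, all cells, each culture left out, the run as a block, a mean over cells with limma 3.58.1 and other thinning depths. In simulated counts for the rotenone comparison (19831 genes) edgeR recovered 9 of 50 genes changed 2-fold and 50 of 50 changed 4-fold, with 7 false calls. Named genes were the 10 genes, up to 4 rises and 4 falls of the pathway list from 10 CPM on with the same direction in every culture, and the 5 genes most like CXCL8 and NFKBIA among genes of at least 10 CPM.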

Additional observations from a re-analysis of the deposited data

Results flagged for a closer look

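In groups of 4 cultures, a culture was singled out where its gap to the nearest other, divided by the range of the group, exceeded the 95% critical value of Dixon. Of 18 such groups, 3 were marked, and chance marks about 1 in 20. CXCL6 was 0.0797 CPM in 1 DMSO culture (run 3, 1 UMI) and 0 in the other 3, and 0.150 CPM in 1 troglitazone culture (run 4, 1 UMI) and 0 in the other 3. CCL2 was 2.63 CPM in DMSO run 3, against 5.12 to 5.40 CPM in the other DMSO cultures; without DMSO run 3 the falls of CCL2 with rotenone 0.4 µM and with cycloheximide 20 µM were still called.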

How the results depend on the processing

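No called gene of the 10 changed its direction under any alternative run; counts and calls that changed follow. With rotenone 0.4 µM the pathway list had 11 genes higher, but 21 with TMM factors, 23 with DESeq2 size factors, 23 with DESeq2 and 6 with the run as a replicate block; over all genes, 3794 were higher and 8373 lower, but 5884 higher with DESeq2 size factors and 5564 lower with DESeq2. Called genes were thus 31.2% higher with total counts and 47.8% with TMM factors. CXCL3 reversed without rotenone run 6 (-0.99) and with the replicate block (-0.086). Leaving out each culture gave 2 to 3 genes higher and 5 to 6 lower of the 8. With cycloheximide 20 µM the split was 33.0% higher with total counts and 43.2% with DESeq2 size factors, the pathway list had 3 genes higher but 5 with DESeq2, and the replicate block gave 444 genes higher, 1274 lower and 10 pathway genes lower, against 1220, 2474 and 16. Leaving out each culture gave 763 to 1267 genes higher (763 without DMSO run 3, 773 without DMSO run 6 and 782 without cycloheximide run 3), 1146 to 2230 lower, 5 to 13 pathway genes lower and 5 to 7 of the 8 lower. CXCL2 also lost its call without mitochondrial and ribosomal protein genes in the total (adjusted p = 0.0569) and with the block (0.203), and CCL2 with TMM factors (0.0527), with that total (0.0609) and with the block (0.142). In the direct contrast 1 of the genes was lower, but 2 with all cells (CXCL8, -1.02) and 0 to 2 with each culture left out; CCL20 reversed to 0.12 without rotenone run 6. The split there was 37.4% higher with total counts and 50.1% with DESeq2 size factors. With cycloheximide 0.2 µM the block called 1 gene lower, CXCL8, against 0. The total without mitochondrial and ribosomal protein genes made 2 genes 2-fold lower with rotenone 0.2 µM, against 1, and TMM factors made 1 gene, TNFAIP3, 2-fold higher with tBHQ 3 µM, against 0. The causes were not tested. Run numbers were not taken as pairs: same-run deviations correlated at -0.23 to 0.50 for medium and 0.01 to 0.58 for troglitazone. They correlated at 0.40 to 0.64 for cycloheximide 0.2 µM, etoposide 0.25 and 2.5 µM and all tunicamycin doses. For rotenone 0.4 µM, cycloheximide 2 and 20 µM and etoposide 25 µM the values were -0.25 to -0.01. Where the values are positive, the main test left a shared part of the run in its spread and may have missed changes. Shares of cells depend on depth, and 55 of 80 moved with the thinning.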
